A study of Mus musculus with 14 samples.

Results

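The genes of mitosis and chromosome segregation were followed in C2C12 cells, a mouse myoblast line that leaves the cell cycle and fuses into myotubes when serum is withdrawn. The set comprised 42 genes, chosen by name, out of 24016 transcripts in the deposited table. Each of the 42 names matched 1 row of the table, and all 42 had an average FPKM (a read count per transcript length) of 1 or more across all libraries, as did 14312 transcripts in total, called expressed here. The genes were sorted by role into 8 groups, from the kinase that starts mitosis to the proteins that shape mitotic chromosomes. They lie on 16 chromosomes, with at most 6 on any of them.

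RNA was measured in cells transfected with control siRNA (siCtrl) or with a pool of siRNAs against Klf5 (siKlf5), a zinc-finger transcription factor. Cells were collected on days 0, 1, 2 and 3 of culture in differentiation medium with horse serum. Day 0 cells had the siRNA but no time in that medium. Apart from the siRNA, all 8 groups were the same parental C2C12 line with no engineered allele, and the knockdown was transient. Each combination of siRNA and day was represented by 1 library, so that no group has a replicate of its own. The libraries held 12178833, 7850497, 20301506 and 12366626 reads in siCtrl cells on days 0 to 3, and 11136799, 8119452, 11808641 and 10864084 in siKlf5 cells.

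Klf5 itself was lower in the siKlf5 library on each day. Its FPKM was 223.8, 381.1, 614.4 and 933.1 in siCtrl cells on days 0 to 3, and 35.1, 159.6, 192.1 and 211.4 in siKlf5 cells. FPKM is the number of reads per kilobase of transcript, here scaled to a total of 10000000 per library, so that the values exceed conventional FPKM, and they can be compared between genes. The labelled cell type was checked against its markers. All 12 myotube genes rose from day 0 to day 3 (limma, adjusted p under 0.05, a call made for 12.8% of all expressed transcripts), and their summed FPKM went from 2425 to 28760 in siCtrl and from 1897 to 26970 in siKlf5 cells. The myoblast gene Myf5 ranged from 154.3 to 235.4 over the 8 libraries. Among genes of other lineages, the endothelial Pecam1 and the leukocyte Ptprc did not exceed 0.302 and 0.707, and the T cell gene Cd3e was listed at 0 in every library. Other markers of such lineages were present, with highest FPKM of 65.0 for Lyz2 and 23.5 for Cd68 (myeloid), 4.84 for Tek (endothelial), 156.0 for Pparg (adipocyte) and 77.7 for Runx2 (osteoblast). The adipocyte genes Adipoq, Cfd, Fabp4 and Plin1, however, did not exceed 3.81, 2.44, 1.6 and 0.0. The osteoblast genes Sp7, Alpl and Ibsp did not exceed 2.05, 0.474 and 0.0, and Bglap reached 10.3 on day 3 in siCtrl cells.

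Mitosis is started by cyclin B bound to Cdk1, which Plk1 and the Aurora kinases assist. Chromosomes are then compacted by condensin, attached to spindle microtubules through the kinetochore, and separated once the anaphase-promoting complex destroys securin and cyclin B. Most of these proteins are made only in late G2 and M phase, from promoters that carry a cell cycle homology region (CHR), and their transcripts are lost when myoblasts withdraw from the cycle. In bulk RNA, fewer dividing cells and less RNA per dividing cell cannot be told apart.

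The first comparison asked how the 42 genes moved as differentiation went on. All 42 were lower on day 3 than on day 0 in limma's moderated test with Benjamini-Hochberg adjustment over the 14312 transcripts (adjusted p from 1.53e-05 for Incenp to 0.00523 for Pttg1). The same call was made for 17.6% of all transcripts tested. Without limma's intensity trend this share was 9.54%, where 41 of the 42 genes passed. It was also smaller when a library of day 0 or day 3 was left out. The median log2 difference was -1.70 for the 42 genes and -0.089 for all transcripts. With no replicates, the model had a term for each day and 1 for the siRNA, so the error comes from what these terms leave over in the 8 libraries (3 residual degrees of freedom). When the libraries were rescaled by the median ratio to a common reference, the median of all transcripts moved to 0.012 and that of the 42 genes to -1.59, and all 42 calls were made. Both day 0 values lay above all 6 later values for each of the 42 genes, a separation found in 22.6% of all transcripts.

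The summed FPKM of the 42 genes was 16570, 6383, 7924 and 4836 in siCtrl cells on days 0 to 3. In siKlf5 cells it was 17270, 8657, 8136 and 6216. Most of the loss thus stood between day 0 and day 1 in both series, and the lowest sum in each was on day 3. As a median over genes, 37.7%, 45.2% and 28.5% of the day 0 value remained on days 1, 2 and 3 in siCtrl cells, and 47.9%, 47.5% and 34.5% in siKlf5 cells. On day 0 these were abundant transcripts, with a median at the 88.7th percentile of expressed transcripts in siCtrl and the 90.1st in siKlf5 cells. By day 3 they had moved to the 58.1st and 66.7th percentiles. The lowest, median and highest member values were 89.78 (Cenpf), 375.3 and 984.6 (Ube2c) on day 0 in siCtrl cells, and 23.95, 97.5 and 305.0 for the same genes at the ends on day 3.

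**Figure D1:**
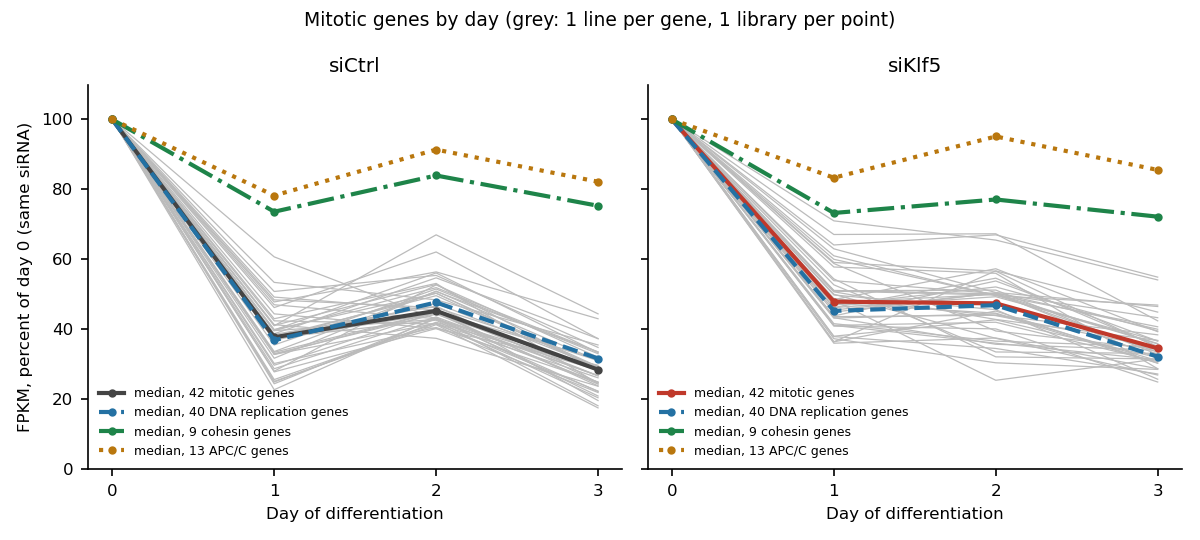
FPKM on days 0 to 3 as a percentage of the day 0 value of the same siRNA, with 1 grey line per mitotic gene and the median of the 42 mitotic genes, 40 DNA replication genes, 9 cohesin genes and 13 genes of the anaphase-promoting complex (APC/C). The medians of the mitotic and replication genes lie below 50% from day 1 on in both panels, while those of cohesin and APC/C stay above 70%.

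The plot of percentages by day shows a step down on day 1 and a second, smaller one on day 3. From day 0 to day 1, 41 of the 42 genes fell (limma, adjusted p under 0.05, against 9.93% of all transcripts), with a median log2 difference of -1.25. The exception was Mki67, whose adjusted p was 0.0543. With 1 library left out, 19 genes passed without siCtrl day 0 and 18 without siKlf5 day 0, where the medians were -1.17 and -1.34 and the calls among all transcripts went from 1421 to 195 and 132. Without limma's intensity trend 20 of the 42 genes and 308 of all transcripts passed. None of the 42 passed between day 1 and day 2, where 1.01% of all transcripts were called higher and 0.377% lower. On the higher side were 33 genes, 4 of these at an unadjusted p under 0.05 (12.7% of all transcripts). On the lower side were 9, 2 of these so (6.39%). The median log2 difference was 0.191 for the 42 genes and 0.114 for all transcripts, but -0.027 for the 42 without siCtrl day 1. Between day 2 and day 3 all 42 were on the lower side, 34 of them at an unadjusted p under 0.05, but none passed after adjustment, and only 0.0279% of all transcripts did (5.65% at an unadjusted p under 0.05). The median log2 difference of this last step was -0.549 for the 42 genes and -0.055 for all transcripts.

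What these genes share besides their function was looked for in their promoters, since the CHR is the element known to time this class. A window from 250 bases before to 50 bases after the transcript start was read from the mm9 genome for 23953 transcripts, at the starts the deposited table gives. The CHR core, TTTGAA or TTCGAA on either strand, was present in 33 of the 42 windows (78.6%), against 14.0% of those of expressed transcripts and 17.3% of all. The CCAAT box (CCAAT on either strand), which often stands upstream of a CHR, was in 35 of the 42 (83.3%), against 37.7% of expressed and 37.9% of all transcripts. Within 60 bases before to 20 bases after the start, a CHR core was found in 54.8% of the mitotic genes and 2.69% of expressed transcripts. These shares describe letters in a window and are not evidence that a factor binds there.

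The following stretches end just before the transcript start and are shown because they hold a CHR core. They belong to the 6 genes that fell furthest among those with a core within 100 bases upstream. Cdc25c was left aside whatever its fall, as was Kif20a, whose window held no CHR core. Capitals mark the CHR core (TTTGAA, or TTCAAA where it lies on the other strand) and the CCAAT box (CCAAT or ATTGG). All are from mm9 and are written 5′ to 3′ on the strand of the gene.
Mki67 (chr7:142908063-142908162, minus strand): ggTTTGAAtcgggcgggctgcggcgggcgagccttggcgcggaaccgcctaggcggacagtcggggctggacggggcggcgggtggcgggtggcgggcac
Espl1 (chr15:102126624-102126723, plus strand): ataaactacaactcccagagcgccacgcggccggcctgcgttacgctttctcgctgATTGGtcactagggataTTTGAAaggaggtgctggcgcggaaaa
Ncapg (chr5:46061061-46061160, plus strand): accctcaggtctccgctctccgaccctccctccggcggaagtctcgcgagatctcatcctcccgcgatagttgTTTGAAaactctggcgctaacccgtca
Kif11 (chr19:37450793-37450892, plus strand): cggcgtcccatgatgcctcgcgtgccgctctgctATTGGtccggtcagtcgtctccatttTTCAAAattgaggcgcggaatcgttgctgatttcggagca
Cdc20 (chr4:118109958-118110057, minus strand): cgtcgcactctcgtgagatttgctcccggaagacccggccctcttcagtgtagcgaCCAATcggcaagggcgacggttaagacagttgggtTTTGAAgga
Top2a (chr11:98885504-98885603, minus strand): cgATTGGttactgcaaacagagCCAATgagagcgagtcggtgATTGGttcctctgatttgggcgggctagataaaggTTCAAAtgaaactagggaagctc

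In 5 of these 6 stretches the CHR core begins 18 to 40 bases before the start, and in that of Mki67 it begins 98 bases before. The stretch shown for Top2a, which encodes the topoisomerase that untangles sister chromatids, has 3 of the 6 CCAAT boxes of its 300-base window, all in front of the core. The first letters of the 3 stand 98, 78 and 58 bases before the start. The 33 genes with a CHR core in the window and the 9 without one had median log2 changes of -1.71 and -1.70 from day 0 to day 3 (mean of both siRNAs), a difference that was not tested. The 9 without the core include Ccnb1, Ccna2 and Birc5.

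Other classes of cell cycle genes were searched in the same windows, and no difference between classes was tested. The CHR core was in 56.4% of 78 further mitotic genes, but in 10.0% of 40 DNA replication genes and in 3 of 22 genes (13.6%) of cohesin and the APC/C. The CCAAT box was in 62.8% of these further mitotic genes, 65.0% of the replication genes and 11 of the 22. An E2F site, searched as TTTCCCGC, TTTCGCGC, TTTGCCGC or TTTGGCGC on either strand, was in 47.5% of the replication genes, in 7.14% of the 42 mitotic genes (Cdk1, Ncapg and Ncapd2) and in 3.86% of expressed transcripts. GC and CACCC boxes, the letters CCGCCC or CCACCC that Klf proteins can bind, were in 88.1% of the mitotic, 73.3% of the expressed and 59.5% of all promoters. They were also in 90.9% of the genes of cohesin and the APC/C, in all 17 cell cycle transcription factors searched and in 80.0% of the replication genes. Within 60 bases before to 20 bases after the start they were in 42.9% of the mitotic and 44.8% of the expressed promoters.

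**Figure D2:**
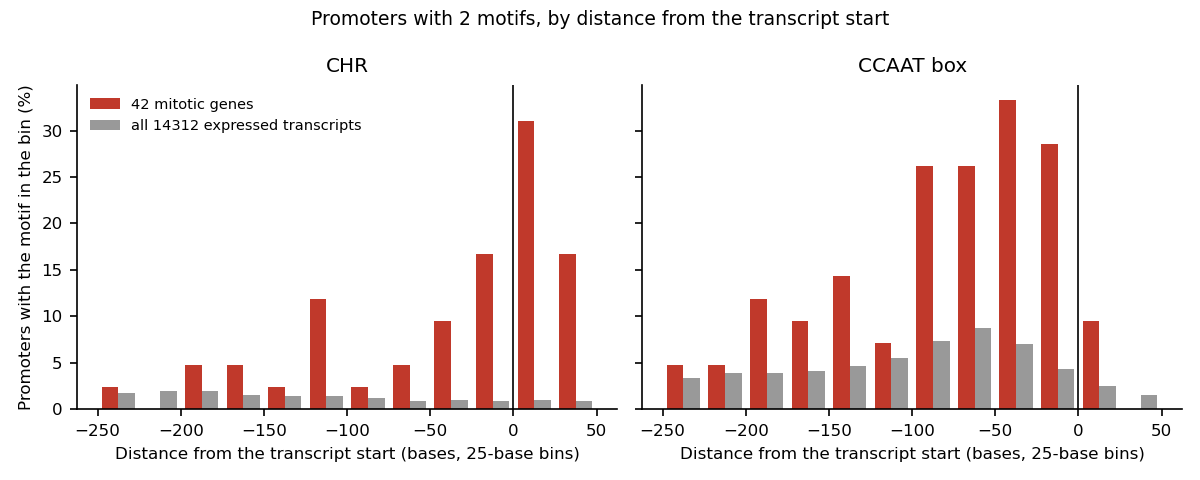
Share of promoters (%) with a CHR core (left) or a CCAAT box (right) in each 25-base bin of distance from the transcript start, for the 42 mitotic genes (red) and all 14312 expressed transcripts (grey). CHR cores of mitotic genes are most frequent in the first 25 bases after the start (31.0% against 0.964%), and CCAAT boxes in the bin from 50 to 25 bases before it (33.3% against 7.0%).

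The motif plot by distance shows both elements close to the start in the mitotic genes, with the CCAAT boxes upstream of the CHR cores. Among expressed transcripts the CHR core had no such peak, as no bin held more than 1.96%.

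**Figure D3:**
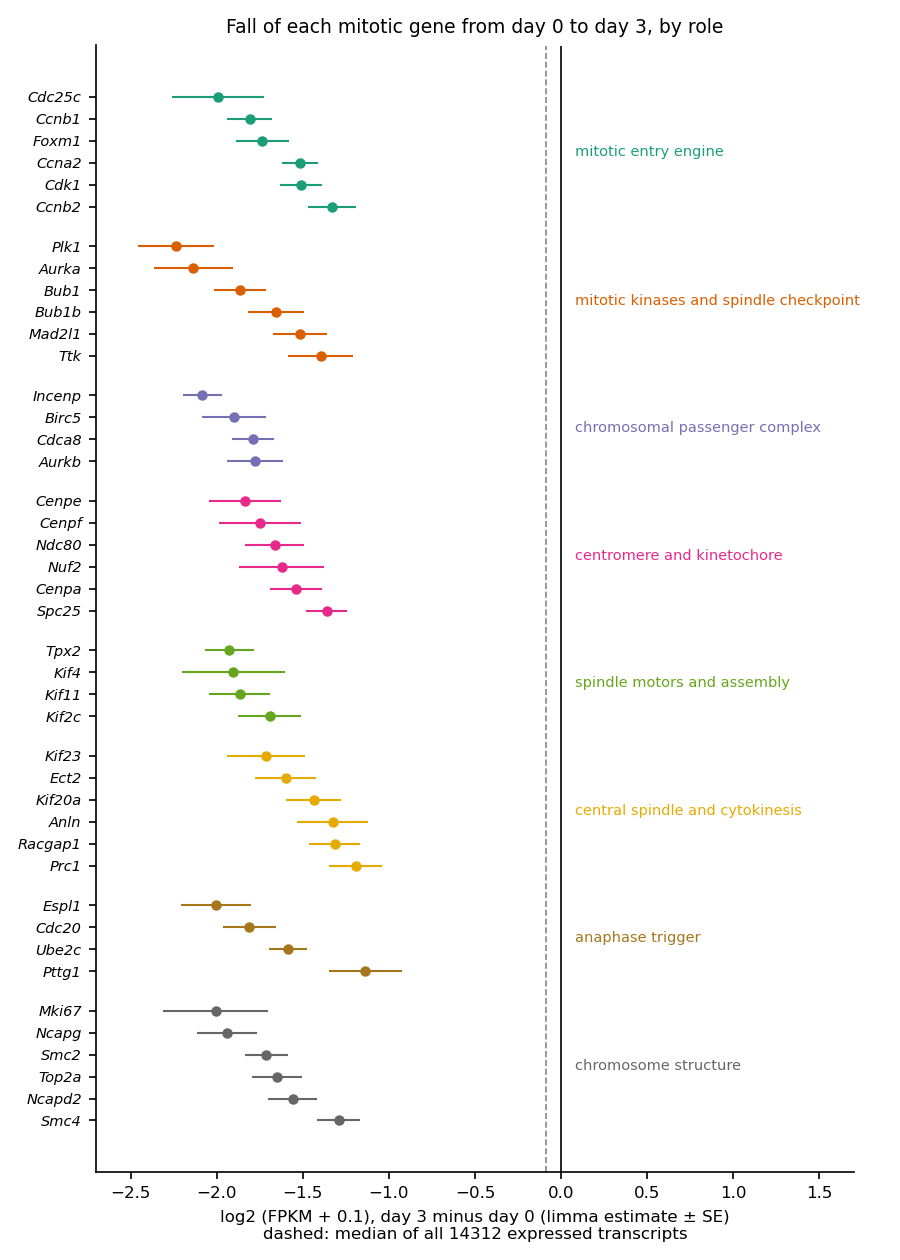
Difference in log2 (FPKM + 0.1) between day 3 and day 0 for each mitotic gene (limma estimate ± SE over the 8 libraries), grouped by role, with a dashed line at the median of all expressed transcripts. Every point lies left of -1, from -2.24 for Plk1 to -1.14 for Pttg1.

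The 6 genes of the mitotic entry engine comprise Cdk1, its cyclins Ccna2, Ccnb1 and Ccnb2, the phosphatase Cdc25c, which activates Cdk1, and Foxm1, the transcription factor that drives many G2 and M phase genes. Ccna2 was the most abundant in every library but siKlf5 day 1, where Ccnb2 was higher (340.6), with FPKM of 582.9, 232.2, 327.0 and 194.4 in siCtrl and 663.0, 290.7, 356.8 and 243.0 in siKlf5 cells on days 0 to 3. Both day 0 libraries stood far above the others, and day 2 lay between days 1 and 0 in both series. Here and below, falls are ranked by the limma estimate over both siRNAs, and the order within a single series can differ. Cdc25c fell the most of the 6 by log2 difference (-1.99 ± 0.27 SE, limma adjusted p 0.00121). Its values were low, at 135.5, 37.7, 54.5 and 29.7 in siCtrl and 103.2, 59.6, 57.8 and 29.6 in siKlf5 cells. Ccnb2 fell the least (-1.33 ± 0.14 SE, adjusted p 0.000404), and in siKlf5 cells it kept 67.1% of its day 0 value on day 1, against 46.2% in siCtrl cells.

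Cdk1 had FPKM of 381.1, 151.1, 197.8 and 127.7 in siCtrl and 412.2, 190.5, 203.2 and 151.4 in siKlf5 cells. The siKlf5 value was the higher of each pair, but the 95% counting interval of their ratio included 0 on every day. The log2 difference from day 0 to day 3 was -1.51 ± 0.12 SE (adjusted p 9.87e-05). Ccnb1 had 568.0, 211.1, 252.6 and 138.2 in siCtrl and 584.9, 278.4, 292.6 and 195.5 in siKlf5 cells, and fell by 1.81 on the log2 scale (± 0.13 SE, adjusted p 6.87e-05). On day 3 it was thus at 24.3% of day 0 in siCtrl and 33.4% in siKlf5 cells.

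Among the kinases and the spindle checkpoint, Plk1 was both the most abundant on day 0 and the gene with the largest fall of all 42. Plk1 drives centrosome maturation, mitotic entry and cytokinesis. Its FPKM was 448.9, 112.8, 185.3 and 78.6 in siCtrl and 466.3, 232.4, 212.5 and 119.8 in siKlf5 cells. The day 0 libraries were alike, and the widest gap between the siRNAs was on day 1. From day 0 to day 3 the log2 difference was -2.24 ± 0.22 SE (adjusted p 0.000288). Aurka, the centrosomal Aurora kinase, fell next furthest (-2.14 ± 0.23 SE, adjusted p 0.000446), from 394.8 to 71.6 in siCtrl and from 453.6 to 129.1 in siKlf5 cells.

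The checkpoint genes Bub1, Bub1b, Mad2l1 and Ttk hold back anaphase until every kinetochore is attached. All 4 fell, with log2 estimates from -1.86 (Bub1) to -1.40 (Ttk). Ttk had 139.9, 39.2, 73.8 and 44.8 in siCtrl and 157.7, 57.5, 89.4 and 70.8 in siKlf5 cells. Its lowest value was on day 1 in both series, and days 2 and 3 lay above day 1.

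The chromosomal passenger complex consists of the kinase Aurkb, the scaffold Incenp, survivin (Birc5) and borealin (Cdca8), and corrects wrong attachments at the centromere. All 4 subunits fell. Incenp had 430.9, 182.7, 179.0 and 96.1 in siCtrl and 497.6, 203.3, 199.5 and 123.8 in siKlf5 cells, with days 1 and 2 almost level in each series. It had the smallest adjusted p of the 42 genes (-2.09 ± 0.11 SE, adjusted p 1.53e-05). Birc5 was the most abundant subunit, at 566.2, 188.9, 254.8 and 151.0 in siCtrl and 639.7, 319.8, 239.1 and 172.2 in siKlf5 cells. Aurkb fell the least of the 4, by 1.78 (± 0.16 SE, adjusted p 0.000198), so the subunits lay within a narrow range of -2.09 to -1.78.

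The centromere and kinetochore genes ran from Cenpa, the histone H3 variant that marks the centromere, through the microtubule-binding Ndc80 complex (Ndc80, Nuf2, Spc25) to the large outer proteins Cenpe and Cenpf. Cenpa had 475.8, 168.9, 245.1 and 157.0 in siCtrl and 493.6, 252.0, 247.1 and 177.1 in siKlf5 cells. Cenpe had 139.4, 84.6, 59.8 and 34.6 in siCtrl and 181.6, 98.8, 58.3 and 57.2 in siKlf5 cells. In siCtrl cells Cenpe had 60.7% of day 0 left on day 1, the highest share of the 42, whereas in siKlf5 cells it had 54.4%, below the 59.1% of Ndc80. On day 2 it had the lowest share of the 6 in both series (42.9% and 32.1%), and it fell the most of them by day 3 (-1.84 ± 0.21 SE, adjusted p 0.000557). Cenpf, the other long transcript of the group, showed the same order of days in siCtrl cells, at 47.0%, 43.0% and 26.7% of day 0.

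For Ndc80, Nuf2 and Spc25 alike the siKlf5 library of day 1 was the higher one. Nuf2 had 302.3, 73.8, 130.1 and 86.4 in siCtrl and 326.1, 165.4, 139.5 and 119.9 in siKlf5 cells, so the siRNAs differed mainly on day 1. Spc25 fell the least of the group (-1.36 ± 0.12 SE, adjusted p 0.000169), to 43.0% of day 0 in siCtrl and 35.1% in siKlf5 cells. It was 1 of only 2 genes, with Cdc25c, whose siKlf5 value on day 3 was not above the siCtrl value.

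The spindle motors and assembly factors were Kif11, the motor that pushes the poles apart, Kif2c, which depolymerizes microtubules at the centromere, the chromokinesin Kif4, and Tpx2, which activates Aurka on the spindle. Tpx2 had 458.8, 181.6, 196.3 and 101.8 in siCtrl and 446.1, 211.5, 198.9 and 138.5 in siKlf5 cells. Over both siRNAs Tpx2 fell the most of the 4 (-1.93 ± 0.14 SE, limma adjusted p 6.87e-05). In siCtrl cells alone Kif4 fell further (-2.253 against -2.171), and in siKlf5 cells Kif11 did (-1.703 against -1.687). Its siRNA pairs lay close together up to day 2. Kif4 had 142.9, 32.5, 61.9 and 29.9 in siCtrl and 167.9, 72.7, 59.9 and 57.0 in siKlf5 cells. The siCtrl values of Kif4 went down, up and down again, whereas the siKlf5 values stayed between 57.0 and 72.7 after day 0. Kif2c fell the least, by 1.69 (± 0.19 SE, adjusted p 0.000472).

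The 6 genes of the central spindle and cytokinesis had the smallest median fall of the 8 groups when both siRNAs were averaged, with a log2 estimate of -1.38. In siCtrl cells alone their median was -1.67, against -1.63 for the mitotic entry genes, and in siKlf5 cells it was -1.25 against -1.51. They were Kif20a, the centralspindlin pair Kif23 and Racgap1, the microtubule bundler Prc1, the RhoA exchange factor Ect2 and anillin (Anln), which scaffolds the contractile ring. Racgap1 was the most abundant, at 794.6, 307.8, 434.6 and 296.6 in siCtrl and 874.2, 471.6, 438.6 and 378.4 in siKlf5 cells. Kif23, its partner, fell the most of the 6 (-1.72 ± 0.23 SE, adjusted p 0.00117). In siCtrl cells Kif23 dropped to 24.9% of day 0 on day 1, while it kept 51.0% in siKlf5 cells.

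In the values as deposited, Prc1 and Anln were the only genes of the 42 that stayed above 50% of day 0 throughout in siKlf5 cells. This depended on scaling, as 38 genes rather than 40 were below 50% on day 3 with median-ratio or upper-quartile scaling. Prc1 had 552.9, 280.7, 306.4 and 192.4 in siCtrl and 436.4, 279.8, 292.2 and 239.7 in siKlf5 cells, and fell the least of the 6 (-1.19 ± 0.15 SE, adjusted p 0.00097). Anln had 508.8, 202.8, 255.7 and 149.3 in siCtrl and 355.7, 252.5, 233.0 and 192.5 in siKlf5 cells. Both began lower in the siKlf5 than in the siCtrl library and ended higher, so that they had 54.9% and 54.1% of day 0 left on day 3 in siKlf5 cells, against 34.8% and 29.3% in siCtrl cells.

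The anaphase trigger was made up of Cdc20, the activator of the anaphase-promoting complex, its ubiquitin-conjugating enzyme Ube2c, securin (Pttg1) and separase (Espl1), the protease that cuts cohesin. Ube2c had the highest day 0 value of all 42 genes, at 984.6, 476.6, 454.7 and 305.0 in siCtrl and 940.3, 563.8, 467.6 and 336.9 in siKlf5 cells. Espl1 had 173.0, 44.3, 72.2 and 35.3 in siCtrl and 169.1, 61.5, 76.5 and 51.3 in siKlf5 cells, and fell the most of the 4 (-2.00 ± 0.20 SE, adjusted p 0.000318). Separase and its inhibitor were at opposite ends of the group. Pttg1 had the smallest fall of the 42 (-1.14 ± 0.21 SE, adjusted p 0.00523), with 369.4, 151.3, 247.7 and 163.9 in siCtrl and 450.7, 283.7, 227.7 and 209.7 in siKlf5 cells.

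The genes of chromosome structure were the condensin subunits Smc2, Smc4, Ncapg and Ncapd2, the topoisomerase Top2a, and Mki67, which coats mitotic chromosomes and is widely used as a marker of dividing cells. Top2a had 720.9, 273.2, 357.3 and 210.0 in siCtrl and 748.8, 365.7, 328.4 and 260.6 in siKlf5 cells. Smc4 fell the least (-1.29 ± 0.13 SE, adjusted p 0.000258), at 579.6, 309.8, 280.4 and 205.7 in siCtrl and 587.7, 358.3, 291.6 and 275.8 in siKlf5 cells. Its partner Smc2 and the other condensin subunits fell by 1.56 to 1.94. Mki67 had 196.8, 96.8, 89.5 and 38.5 in siCtrl and 250.1, 120.5, 63.5 and 78.9 in siKlf5 cells, and fell the most of the group (-2.01 ± 0.31 SE, adjusted p 0.00214). It had the widest error of the group, with the siKlf5 value on day 2 below and that on day 3 well above the siCtrl value.

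**Figure D4:**
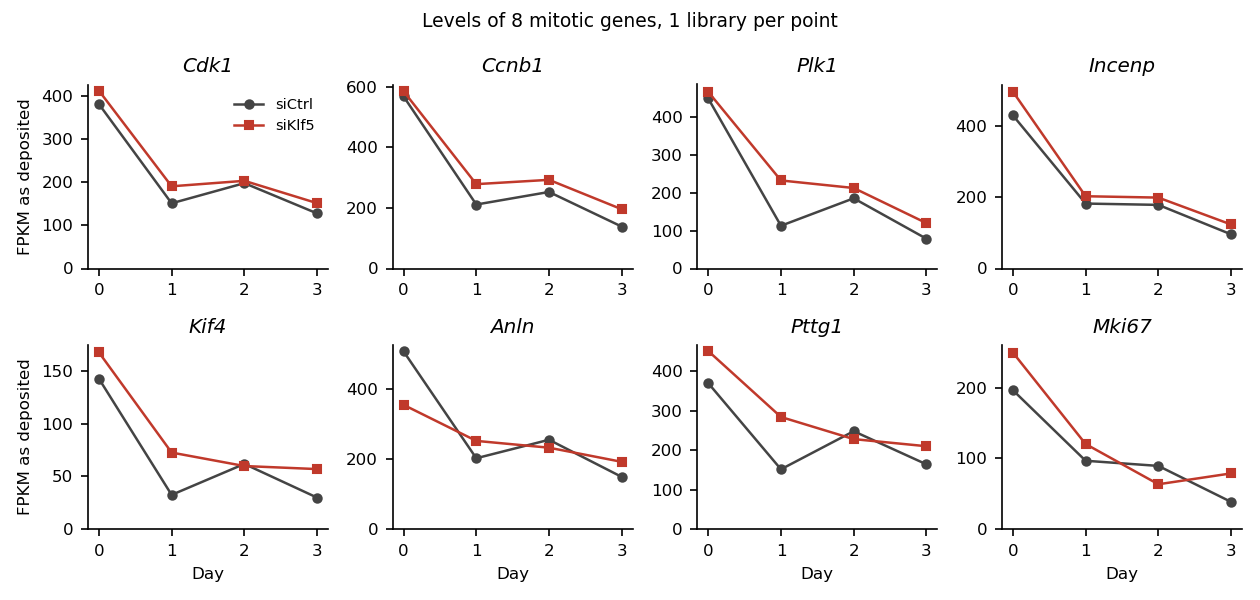
FPKM as deposited (linear axis from 0) of 8 mitotic genes on days 0 to 3 in siCtrl (grey circles) and siKlf5 cells (red squares), 1 library per point. The siKlf5 values lie above the siCtrl values on each day for Cdk1, Ccnb1, Plk1 and Incenp, and cross them for Kif4, Anln, Pttg1 and Mki67.

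The second comparison asked whether Klf5 knockdown shifted these levels. Over the 4 days none of the 42 genes passed as higher or lower in siKlf5 cells (limma with Benjamini-Hochberg adjustment, smallest adjusted p 0.269, for Foxm1). In all, 0.00699% of transcripts passed as higher and 0.0559% as lower. The estimates nevertheless lay on 1 side, with 41 of the 42 genes higher in siKlf5 cells, 15 of these at an unadjusted p under 0.05 (3.93% of all transcripts), and a median log2 difference of 0.239 against 0.01 for all transcripts. The members share their libraries, so the 41 are not independent. Foxm1 had 285.7, 84.9, 128.2 and 89.6 in siCtrl and 397.5, 143.2, 149.1 and 114.1 in siKlf5 cells, a log2 difference of 0.45 ± 0.11 SE. The siKlf5 value was the higher one on all 4 days for 15 genes, Foxm1 among them (9.05% of all transcripts), and on at least 3 days for 38 (32.8%). Klf5 itself passed this test, at -1.94 ± 0.20 SE (adjusted p 0.0244). Without limma's intensity trend no transcript passed as lower, Klf5 included. With 1 library left out none did either, except 1 transcript without siKlf5 day 1.

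Whether the 2 series moved at different rates was tested with a slope over days in each. None of the 42 slopes passed as different (smallest adjusted p 1, none at an unadjusted p under 0.05, and 0.0% of all transcripts passing). As no transcript passed at all, this test cannot show that the rates were alike. The median difference in slope was 0.049 log2 units per day, and its sign depended on the libraries used, at -0.28 without siCtrl day 0, 0.286 without siKlf5 day 0 and -0.045 without siKlf5 day 3.

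On single days there is 1 library on each side and hence no test. The following log2 ratios of siKlf5 to siCtrl are given with 95% exact (Clopper-Pearson) intervals, computed on reads divided by 6 because reads came in clumps, and cover counting error only. The median ratio of the 42 genes was 0.082, 0.41, 0.036 and 0.364 on days 0, 1, 2 and 3, while that of all expressed transcripts was 0.001, 0.035, -0.031 and 0.0. The siKlf5 value was the higher one for 30, 41, 25 and 40 of the 42 genes on days 0, 1, 2 and 3 (71.4%, 97.6%, 59.5% and 95.2%), and for 50.1%, 53.1%, 44.5% and 48.5% of all expressed transcripts. With the reads of the 42 genes pooled, the interval of the ratio was above 0 on day 0 (0.035 to 0.098), day 1 (0.342 to 0.458) and day 3 (0.35 to 0.461). It included 0 on day 2 (-0.031 to 0.051). This contrast between days 0 and 2 depended on scaling. The medians on days 0 and 2 were 0.078 and 0.083 with median-ratio scaling, and 0.085 and 0.082 with upper-quartile scaling. Intervals lay entirely above 0 for 6, 20, 2 and 24 genes on days 0, 1, 2 and 3, and entirely below 0 for 2, 0, 1 and 0. Among all expressed transcripts, which were not matched on read number, they lay above 0 for 4.5%, 7.18%, 7.2% and 6.45%, and below 0 for 5.12%, 5.6%, 10.3% and 7.19%.

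A ratio past 1.5-fold higher in siKlf5 cells was reached by 0, 14, 0 and 8 of the 42 genes on days 0, 1, 2 and 3, where 9.22%, 16.4%, 7.69% and 10.7% of all transcripts did so. A ratio past 1.5-fold lower was reached by none of the 42 on any day, where 11.1%, 11.0%, 13.0% and 12.5% of all transcripts did so. In both directions the transcripts compared were not matched on read number, and ratios of transcripts with few reads scatter more. The 14 genes of day 1 included Nuf2 (log2 ratio 1.16, interval 0.59 to 1.74), Kif4 (1.16, 0.58 to 1.84), Plk1 (1.04, 0.55 to 1.54) and Kif23 (1.02, 0.54 to 1.49), and also Ccnb2, Foxm1, Aurkb, Birc5 and Pttg1. The 8 of day 3 were Mki67 (1.03, 0.73 to 1.36), Kif4 (0.93, 0.40 to 1.48), Aurka (0.85, 0.31 to 1.43), Kif2c, Cenpe, Ttk, Cenpf and Plk1. Kif4 and Plk1 were on both lists, and the share of all transcripts past 1.5-fold higher on both days was not computed.

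**Figure D5:**
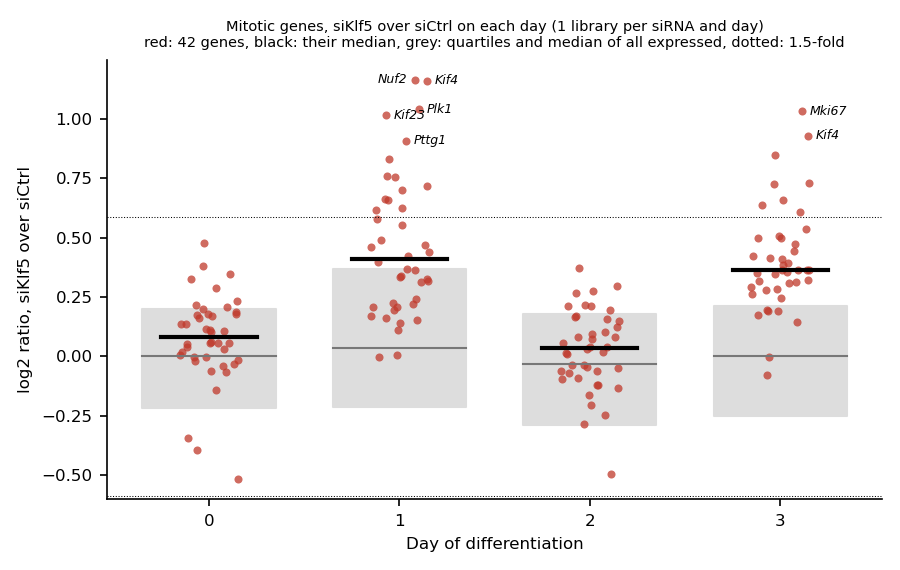
Log2 ratio of siKlf5 to siCtrl on each day for the 42 mitotic genes (red points, spread sideways for view), with their median (black bar), the quartiles and median of all expressed transcripts (grey), and 1.5-fold in either direction (dotted). The medians stand at 0.41 and 0.364 on days 1 and 3, and at 0.082 and 0.036 on days 0 and 2.

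The plot of ratios by day shows higher medians on days 1 and 3 than on days 0 and 2. From day 1 to day 2 the median log2 change was 0.405 in siCtrl and -0.039 in siKlf5 cells, where that of all expressed transcripts was 0.168 and 0.025. In siCtrl cells 34 genes (81.0%) were higher on day 2 than on day 1, as were 62.3% of all transcripts. Past 1.5-fold were 11 of them (26.2%), close to the 24.9% of all transcripts, and none were past 1.5-fold lower (10.1%). In siKlf5 cells 18 genes (42.9%) were higher (52.4% of all transcripts), 1 was past 1.5-fold higher (15.2%) and 3 were past 1.5-fold lower (10.2%). From day 2 to day 3 the median log2 change was -0.717 in siCtrl and -0.393 in siKlf5 cells, with 35 and 8 genes past 1.5-fold lower (12.8% and 10.4%). Neither difference between the series was tested, and the siCtrl libraries of day 1 and day 2 were the shallowest and the deepest of the 8.

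The day on which a gene was first found below 50% of its day 0 value was later in siKlf5 cells for part of the genes, again without a test. On day 1 values below 50% were found for 39 genes in siCtrl cells (12.7% of all transcripts) and for 26 in siKlf5 cells (10.4%). The 26 were all among the 39, but with 39 of the 42 below 50% in siCtrl cells there was little room for another outcome. The share of all transcripts below 50% in both series was not computed. Birc5 stood just under the limit in siKlf5 cells. Kif23, Nuf2 and Kif20a were among the 13 that were below it in siCtrl cells alone, but at 51.0%, 50.7% and 50.9% they stood just above it in siKlf5 cells. The 26 became 19 with median-ratio and 16 with upper-quartile scaling (9.31% and 8.98% of all transcripts). The 39 in siCtrl cells became 34 with either scaling (10.6% and 10.5%). On day 2 it held for 27 and 25 genes (8.68% and 9.99%), and on day 3 for 42 and 40 (12.9% and 12.8%), the 2 exceptions being Prc1 and Anln. The 40 became 38 with median-ratio and with upper-quartile scaling (10.8% and 10.6% of all transcripts). The median log2 change from day 0 to day 3 was -1.81 in siCtrl and -1.53 in siKlf5 cells.

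Other genes of cell division were compared to see where the 42 stood apart. Of 78 further mitotic genes, 76 fell from day 0 to day 3 (limma, adjusted p under 0.05), with a median log2 difference of -1.58. Gtse1 fell the most, from 256.6 to 45.2 in siCtrl and from 324.0 to 76.9 in siKlf5 cells, and the condensin II subunit Ncaph2 the least, from 430.1 to 315.6 and from 478.4 to 321.5. The 2 that did not pass were Cenpm (adjusted p 0.0598) and Oip5 (0.206). All 40 DNA replication genes fell, with a median of -1.60. Among these, Ccne1, the cyclin of S phase entry, went from 197.3 to 36.9 in siCtrl and from 185.1 to 44.6 in siKlf5 cells. The ribonucleotide reductase subunit Rrm1 fell the least, from 361.4 to 219.0 and from 354.8 to 263.3. None of these genes passed as different between the siRNAs. On single days, again without a test, their ratios of siKlf5 to siCtrl also had higher medians on days 1 and 3. They were 0.096, 0.393, 0.015 and 0.37 for the further mitotic genes on days 0 to 3 (66 and 65 of 78 higher on days 1 and 3). For the replication genes they were 0.15, 0.303, 0.127 and 0.202 (36 and 28 of 40 higher on days 1 and 3).

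A smaller share of the constitutive machinery passed, a difference from the 42 that was not tested. Cohesin, which holds sister chromatids and also shapes interphase chromatin, had 4 of 9 genes that fell, with a median log2 difference of -0.439. The anaphase-promoting complex, which stays active in cells out of cycle, had 4 of 13, with a median of -0.246. The same call was made for 17.6% of all transcripts. In this complex the subunit Anapc2 had 363.5, 330.2, 359.3 and 377.6 in siCtrl and 374.4, 368.2, 356.2 and 368.8 in siKlf5 cells, and its difference from day 0 to day 3 was 0.02 ± 0.10 SE. Its partners in anaphase from the set of 42, Cdc20 and Ube2c, went to 23.7% and 31.0% of day 0 on day 3 in siCtrl cells. None of the 22 genes was below 50% of its day 0 value on day 3 in either series, whereas 42 and 40 of the mitotic genes and 12.9% and 12.8% of all transcripts were.

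Of 17 transcription factors of the cell cycle, 9 fell and 1 rose, where 17.6% and 12.8% of all transcripts did. Mybl2 (B-Myb), which works with the MuvB complex on CHR promoters, fell the most, from 124.1 to 18.4 in siCtrl and from 162.9 to 30.7 in siKlf5 cells (-2.58 ± 0.24 SE, adjusted p 0.000217). Rb1, the retinoblastoma protein that keeps differentiated cells out of cycle, rose (1.61 ± 0.19 SE, adjusted p 0.000666). It had 61.8, 153.9, 244.3 and 211.3 in siCtrl and 72.6, 165.6, 166.7 and 199.6 in siKlf5 cells, so that the day 0 libraries were the 2 lowest. E2f4, the E2F of the repressive DREAM complex, had 0.05 ± 0.15 SE (adjusted p 0.851).

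The markers of muscle and of other cells moved beside the mitotic genes. All 12 myotube genes rose (median log2 difference 4.06), as did 4 of 5 expressed fibroblast genes (12.8% of all transcripts). The summed fibroblast list, in which Col3a1 was the most abundant, went from 1755 to 4144 in siCtrl and from 1592 to 3935 in siKlf5 cells. Of 8 expressed genes of undifferentiated or reserve myogenic cells, Id1 and Id3 fell and Heyl rose, while Pax7 ranged from 9.31 to 21.3. On day 3, when the mitotic genes were higher in the siKlf5 library, 5 of the 12 myotube genes were higher there too (48.5% of all expressed transcripts). The median log2 ratio of the 12 was then -0.031. On days 0, 1 and 2 it was -0.506, -0.09 and 0.283, with 2, 5 and 8 of the 12 higher (50.1%, 53.1% and 44.5% of all expressed transcripts). Of the 8 genes of undifferentiated or reserve cells, 1, 6, 6 and 7 were higher in siKlf5 cells on days 0, 1, 2 and 3, with median log2 ratios of -0.429, 0.341, 0.174 and 0.223. Their summed FPKM, with Sdc4 the most abundant on average and Pax3 below the expression limit included, was 1677, 1190, 1455 and 1342 in siCtrl and 1414, 1494, 1687 and 1473 in siKlf5 cells. The only myotube gene past 1.5-fold lower on day 3 was Myog (-0.726). The summed myotube list was 21290 in siCtrl and 25360 in siKlf5 cells on day 2, and 28760 and 26970 on day 3. The part of cell composition in these levels was not tested.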

How the data were processed

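RNA of 8 C2C12 samples was analysed, and the 6 ChIP-seq samples of the series were not. Per the labels, poly(A) RNA was pulled down with oligo-dT beads and sequenced in paired-end mode, and STAR was run at default settings against mm9. HOMER then summed the reads on RefSeq exons. FPKM values as deposited had been counted, per the file header, over both strands, with at most 3 reads per position and 1 transcript kept per gene. Reads of overlapping antisense genes thus cannot be told apart. The 8 deposited log2 columns of per-sample values were not used, nor were DESeq2 counts, which the labels mention.

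Reads were recovered from the steps between low values, of which 100.0% were whole within 0.1. Transcripts with 6 reads outnumbered those with 5 by 2.83 to 10.02 times, so counting intervals used reads divided by 6. A value of a mitotic gene rested on 93 to 7345 reads. Intervals cover counting error only. The p-values measure the spread that the model leaves among single libraries. This spread may be technical, and an siRNA effect that varies by day would also go into it.

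Log2(FPKM + 0.1) of 14312 transcripts (mean of at least 1) was fitted with limma 3.58.1 in R 4.3.3, with an intensity trend, day as a factor and siRNA as a term. Slopes per siRNA were fitted with 4 residual degrees of freedom. Fold changes are on this scale, which understates low genes. The calculations were tested on simulated data. Values were read with Python 3.11.15, pandas 2.3.3, numpy 2.4.6, scipy 1.17.1 and matplotlib 3.10.9.

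The 42 genes and all lists were chosen with earlier results of these data known. Named in each role were the gene with the highest day 0 value and those with the largest and smallest falls, plus genes past 1.5-fold on day 3 or discussed with them, and in the other lists the extremes. Of the 42 table starts, 41 lay within 50 bases of a GENCODE vM1 transcript start, 24 of them at it, and printed stretches end before the most upstream of both. Cdc25c and Kif20a were not considered for printing. Alternatives were other pseudocounts, filters, scalings and cutoffs, limma without the trend, day as a number, and leaving out each library.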

Additional observations from a re-analysis of the deposited data

Results flagged for a closer look

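In 3 mitotic genes the log2 ratio of siKlf5 to siCtrl had opposite signs on different days, with counting intervals off 0 on both. The share of all expressed transcripts that did so was not computed. With 1 library per siRNA and day these differences were not tested, and the intervals cover counting error only. Prc1, the microtubule bundler of the central spindle, had a ratio of -0.341 (95% interval -0.535 to -0.154) on day 0 and 0.317 (0.028 to 0.599) on day 3. Anln, which scaffolds the contractile ring, had -0.516 (-0.67 to -0.363) on day 0, 0.316 (0.065 to 0.568) on day 1 and 0.366 (0.129 to 0.607) on day 3.

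Mki67, the marker of dividing cells, had a ratio of 0.346 (0.193 to 0.5) on day 0, 0.315 (0.053 to 0.587) on day 1, -0.495 (-0.735 to -0.258) on day 2 and 1.032 (0.726 to 1.357) on day 3. Its log2 change from day 2 to day 3 was -1.214 (-1.508 to -0.941) in siCtrl and 0.313 (0.038 to 0.589) in siKlf5 cells. Of the 42 genes it was the only one on the higher side in this step in siKlf5 cells, where 42.7% of all expressed transcripts were.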

How the results depend on the processing

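Of 195 alternative values, most of them counts of genes, 176 stayed within 1.5 times the main count or, for medians, within the counting error of the pooled reads. Of these, 110 were counts of 0 that stayed 0 and could hardly move, so 66 bear on stability. All 42 genes passed as lower on day 3 than on day 0 under both other pseudocounts, both scalings and all filters, 41 did without limma's trend or with day as a number, and 38 (without siCtrl day 3) to 42 did with 1 library left out. The count for day 1 against day 0 was less stable, at 20 without the trend and between 18 (without siKlf5 day 0) and 37 (without siCtrl day 3) with 1 library left out. Without the trend the share of all transcripts passing fell too, from 17.6% to 9.54% for day 3. For day 1 it fell from 9.93% to 2.15%. With 1 library left out this share was also smaller, except for day 3 without a library of day 1. The lower counts were thus not particular to the 42 genes. Their median log2 difference between day 1 and day 0 stayed between -1.346 (without siKlf5 day 1) and -1.122 (without siCtrl day 1). The median-ratio scaling moved the median log2 ratio to 0.345 on day 1 and 0.083 on day 2, and the median change from day 0 to day 3 to -1.704 in siCtrl and -1.416 in siKlf5 cells. Upper-quartile scaling gave 0.082 on day 2, changes of -1.722 and -1.41, and 16 genes below 50% of day 0 on day 1 in siKlf5 cells (8.98% of all transcripts). With a 2-fold cutoff 4 of the 42 genes were higher in siKlf5 cells on day 1 and 1 on day 3, where 9.08% and 6.24% of all transcripts were. Below 25% of day 0 were 3, 0 and 15 genes on days 1, 2 and 3 in siCtrl cells and 0, 0 and 1 in siKlf5 cells. Of all transcripts 5.55%, 2.96% and 5.0% were so in siCtrl and 4.29%, 3.79% and 4.37% in siKlf5 cells. No mitotic gene passed for the siRNA or for the slope under any alternative. Medians behind some counts changed sign. The median difference in slope, 0.049 log2 units per day, was -0.28 without siCtrl day 0, 0.286 without siKlf5 day 0 and -0.045 without siKlf5 day 3, and the median difference between day 2 and day 1 went from 0.191 to -0.027 without siCtrl day 1. The siRNAs were paired by day in the model, and the labels carry no replicate numbers. With 1 library per siRNA and day, the effect of the siRNA on a single day and that of its library cannot be told apart.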

Other observations

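Transcripts outside the 42 with the most similar course were ranked by Pearson correlation with the mean profile of the 42 genes over the 8 libraries, among the 11549 others that averaged 10 or more. The points share libraries and the day 0 level, so the coefficients are descriptions. The closest was Mcm3 (r = 0.998), a subunit of the replicative helicase, with FPKM of 448.4, 125.7, 172.3 and 92.4 in siCtrl and 483.3, 174.4, 177.8 and 133.6 in siKlf5 cells on days 0 to 3. It was followed by the centrosomal kinase Nek2 (0.995), Mcm5 (0.995), the importin Kpna2 (0.994), the kinetochore gene Knstrn (0.994), the Polycomb methyltransferase Ezh2 (0.993), Hat1, Hspa14, Uhrf1 and the Plk1 activator Bora (0.992). Of the 100 most similar, 21 were among the 78 further mitotic genes, 13 among the 40 replication genes and 3 among the 17 cell cycle transcription factors. Among the 42 themselves, the correlation with the mean profile ran from 0.903 for Cenpe to 0.997 for Top2a, with a median of 0.98.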
